A study of Homo sapiens with 6 samples.

Results

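The genes described here are 35 genes of glucose uptake, glycolysis, the pentose phosphate pathway and the entry of pyruvate into mitochondria, chosen by name from the enzymes and transporters of these pathways. They are 35 of the 58219 gene identifiers counted in 6 RNA sequencing libraries of SNU-387, an established line from a human pleomorphic hepatocellular carcinoma. The first group (shYES1, n = 3) is a stable line with a short hairpin RNA against YES1, which encodes a kinase related to SRC. The other group (shNT, n = 3) is a stable line with a hairpin that has no target, so both groups carry a hairpin vector. The sources used here do not give the sequence of either hairpin or say whether the 3 samples of a group are separate cultures, so p-values measure the spread among the libraries of a group and this spread may be technical. In a bulk RNA sample, a change in every cell and a change in the share of cells that express a gene cannot be told apart.

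Gene reads numbered 11290889 to 18944148 per library, and no library stood apart from its group (Pearson correlation across genes within a group 0.994 to 0.996, where genes are not independent replicates). Levels are given in CPM, read counts scaled by library size and TMM factors. YES1 itself had 42.9, 43.3 and 46.02 CPM in shYES1 cells, against 178, 181 and 179.9 CPM in shNT cells, with no overlap between groups (log2 fold change -2.02, SE 0.037, edgeR adjusted p = 7.93e-40). Of 10 defining markers of hepatocytes, 2 passed the filter on low counts. SERPINA1 averaged 16.9 ± 1.17 CPM in shYES1 cells and 19.1 ± 1.34 CPM in shNT cells and was lower, and TF averaged 3.41 ± 0.237 CPM in shYES1 cells and 2.46 ± 0.305 CPM in shNT cells and was higher (SD, n = 3 each). HNF4A, TTR and CYP3A4 had 0 reads in all 6 libraries, where 3 counts over all libraries would be 0.0337 CPM, and ALB had at most 1 read in any library. Few or no reads fell on other glucose genes typical of liver: SLC2A2, G6PC1 and PCK1 had 0 reads in all 6 libraries, and PKLR had at most 2 reads in any library. The summed level of 5 mesenchymal markers, mostly FN1, was 16651 to 16827 CPM in shYES1 and 25679 to 28319 CPM in shNT. Of the 5, 4 were lower and 1, CDH2, was higher (log2 fold change 0.38). The sum of 5 epithelial markers, nearly all from KRT8 and KRT18, was 1069.5 to 1091 CPM in shYES1 and 764 to 774 CPM in shNT. KRT8 and KRT18 were higher. EPCAM was scarce and not called (log2 fold change -0.59, edgeR adjusted p = 0.058), and KRT19 and CDH1 did not pass the filter. Summed over 4 blood cell markers, the level was 0.548 to 0.664 CPM in shYES1 and 0.151 to 1.08 CPM in shNT. Their part in the results below was not tested.

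Glycolysis splits glucose into pyruvate in the cytosol. Hexokinase traps glucose as glucose 6-phosphate, phosphofructokinase commits it to breakdown, and later enzymes recover ATP. Pyruvate is then either reduced to lactate by lactate dehydrogenase or carried into mitochondria and oxidised by the pyruvate dehydrogenase complex, which pyruvate dehydrogenase kinases switch off and phosphatases switch on. The pentose phosphate pathway branches off at glucose 6-phosphate and yields NADPH and ribose. Many steps have several isozymes encoded by separate genes, which differ in tissue and regulation, and tumour cells commonly express high levels of glycolytic enzymes. Many of these genes are known targets of the oxygen-regulated transcription factor HIF-1.

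In shYES1 cells the RNA of most glycolytic steps was lower. The 10 genes called higher were HK1, PFKM, PDK2, PDK4, PDHB, MPC1, MPC2, TKT, TALDO1 and TIGAR. All 35 genes passed the filter on low counts. Of these, 22 were lower and 10 higher than in shNT at an edgeR adjusted p under 0.05, and LDHB, PDHA1 and PGD did not pass. Over all 14239 genes tested, 32.8% were lower, 32.5% higher and 65.3% called in either direction, against 62.9%, 28.6% and 91.4% of the 35 genes. At least 2-fold lower were 9 of the 35 genes (25.7%), where 6.22% of all genes were, and at least 2-fold higher were 2, where 2.5% of all genes were. The groups did not overlap for 32 of the 35 genes and for 67.9% of all genes. The median log2 fold change was -0.48 over the 35 genes and -0.0047 over all genes. With library-size scaling alone 22 of the 35 were lower and 13 higher, while over all genes 3762 were lower and 5799 higher, in place of 4676 and 4623. With TMM factors taken from genes without the sequence CCTTTC in the 3′ UTR, 22 of the 35 were lower and 8 higher, and over all genes 5717 were lower and 3553 higher. Together the 35 genes took 1.79%, 1.77% and 1.77% of gene reads in shYES1 libraries 1 to 3, against 2.22%, 2.32% and 2.27% in shNT libraries 1 to 3. Every shYES1 library was below every shNT library in that share, which gives the smallest p that 3 against 3 allows (exact two-sided permutation test, p = 0.10).

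**Figure D1:**
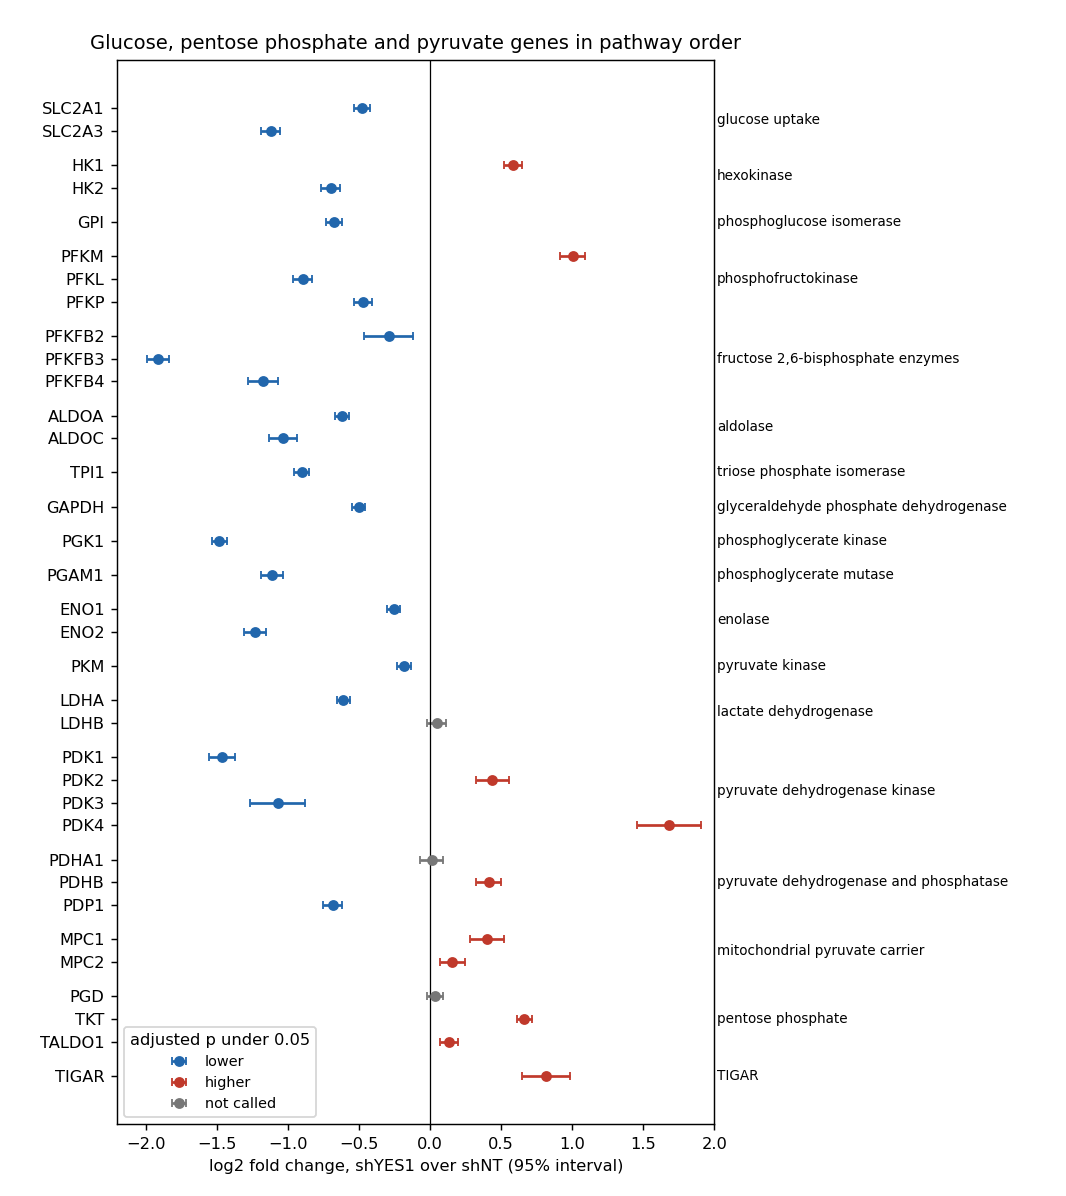
Log2 fold change of each of the 35 genes, shYES1 over shNT, with its 95% interval from the edgeR fit, ordered from glucose uptake at the top to TIGAR at the bottom, and coloured by call at an adjusted p under 0.05. From GPI to LDHA every called gene lies left of 0 except PFKM, while PDK2 (0.44), PDK4 (1.68), PDHB (0.41), MPC1 (0.40), MPC2 (0.16), TKT (0.66), TALDO1 (0.13) and TIGAR (0.81) lie right of 0.

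The 9 genes that were at least 2-fold lower were SLC2A3, PFKFB3, PFKFB4, ALDOC, PGK1, PGAM1, ENO2, PDK1 and PDK3. Of these, 8 of the 9, all but PGAM1, hold the sequence CCTTTC in an annotated 3′ UTR. Earlier results of these same libraries had singled that sequence out as more frequent among genes that were lower, so its presence here is not independent evidence of a direction. One stretch of 30 bases around a match is shown for each of the 8 genes, to show the shared match and the bases around it. The stretches were read from GENCODE release 29 transcripts on GRCh38, 5′ to 3′ on the transcript, with the match in capitals. The first match in the longest annotated 3′ UTR was taken.
SLC2A3, chr12:7921284-7921313, minus strand: tgctacttaattCCTTTCtcatcccacgca
PFKFB3, chr10:6235460-6235489, plus strand: aaacaggagatgCCTTTCagaaatttgtat
PFKFB4, chr3:48518365-48518394, minus strand: ttgtgtccggagCCTTTCctggcctgtgcc
ALDOC, chr17:28573387-28573416, minus strand: ccaacttgtcttCCTTTCtctcttcccttc
PGK1, chrX:78127880-78127909, plus strand: tcctactgattaCCTTTCctccaacgtttt
ENO2, chr12:6922968-6922997, plus strand: tctgctcgccctCCTTTCtgtgccctactc
PDK1, chr2:172602645-172602674, plus strand: cctatggattctCCTTTCtaactctgacct
PDK3, chrX:24539493-24539522, plus strand: ggattctgtgcgCCTTTCccattccagata

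Among the 35 genes, 16 (45.7%) hold CCTTTC on the transcript strand in an annotated 3′ UTR of at least 50 bases, a share near the 48.3% of the 11920 tested genes with such a UTR. Of these 16 genes, 15 were lower and 1, PDK2, was higher, with a median log2 fold change of -0.97. Of the 19 genes without it, 7 were lower, 9 higher and 3 not called, with a median of 0.049. Over all genes, those with the sequence were lower in 43.6% and higher in 30.9% (median log2 fold change -0.077), and those without it lower in 25.9% and higher in 42.0% (median 0.094). UTR length differed as well: the longest annotated 3′ UTR had a median of 2059 bases in the 16 genes with the sequence and 696 bases in the 19 without it, against 2409 and 783 bases over all genes. HK2, PFKL, PFKP, GAPDH, PGAM1, ENO1 and LDHA were lower with no match. Which of these UTRs SNU-387 cells use is not known from gene counts. Whether the sequence has a part in the changes was not tested.

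**Figure D2:**
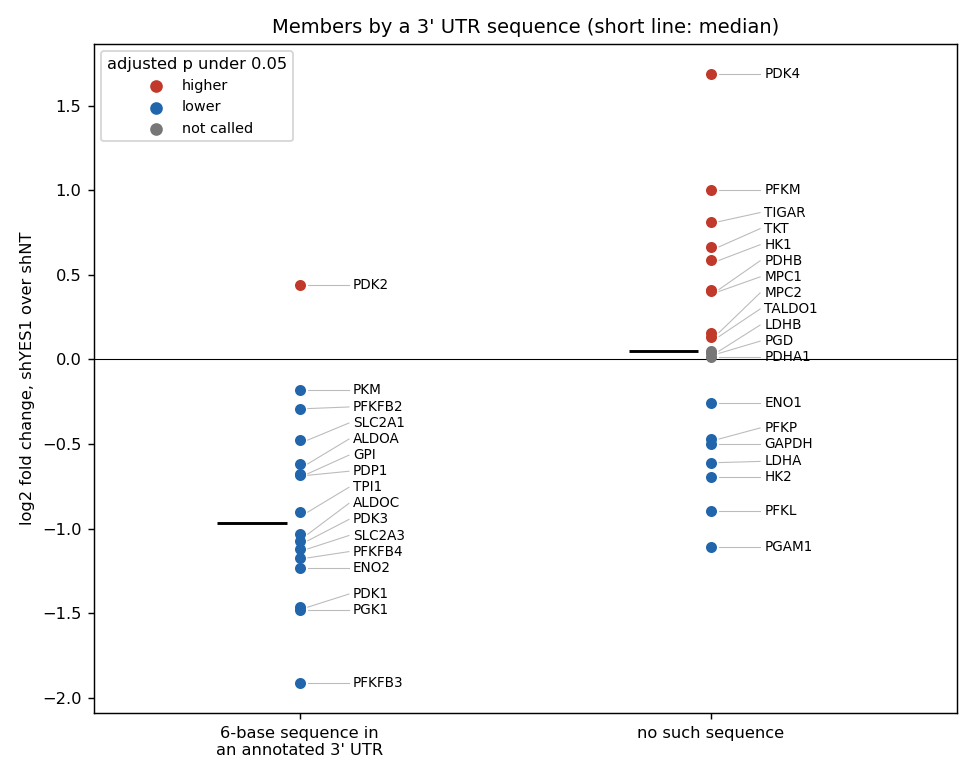
Log2 fold change of the 35 genes, shYES1 over shNT, split by whether an annotated 3′ UTR holds the 6-base sequence named in the text (16 genes on the left, 19 on the right), with short lines at the medians of -0.97 and 0.049. On the left only PDK2 lies above 0, and on the right the genes lie on both sides of it, between PGAM1 at -1.11 and PDK4 at 1.68.

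Promoters were compared for the core letters that HIF-1 is known to bind, ACGTG or GCGTG on either strand, in the 250 bases before each start listed by RefSeq (GRCh38.p14). Of the 35 genes 32 matched the promoter table, several with more than 1 start, and 24 of the 32 (75.0%) held a match before at least 1 start, as did 64.4% of 10489 tested genes in that table. Counted over single windows of 250 bases, 51.7% of the 58 windows of these genes and 43.2% of all 35116 windows held one. For ACGTG alone the shares were 36.2% and 18.5%, for GCGTG alone 31.0% and 32.2%, and for CACGTG, a 6-base sequence that contains ACGTG, 13.8% and 6.35%. Of the 24 genes with a match 16 were lower and 6 higher (median log2 fold change -0.61), and of the 8 without a match 3 were lower and 4 higher (median 0.092). Over all genes, those with a match were lower in 34.2% and higher in 35.6% (median 0.0084), and those without it lower in 33.1% and higher in 35.3% (median 0.022). Stretches of 60 bases from within the 250 are shown for those genes at least 2-fold lower that have 1 listed start and a match. Matches are in capitals, read 5′ to 3′ on the strand of the gene.
PFKFB4, chr3:48556938-48556997, minus strand: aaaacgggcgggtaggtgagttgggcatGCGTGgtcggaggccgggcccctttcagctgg
ALDOC, chr17:28576896-28576955, minus strand: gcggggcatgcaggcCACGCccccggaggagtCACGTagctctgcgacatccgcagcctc
PGK1, chrX:78104037-78104096, plus strand: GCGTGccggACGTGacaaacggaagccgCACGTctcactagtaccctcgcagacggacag
ENO2, chr12:6914434-6914493, plus strand: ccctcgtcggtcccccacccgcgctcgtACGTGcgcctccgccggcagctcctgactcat
PDK3, chrX:24465197-24465256, plus strand: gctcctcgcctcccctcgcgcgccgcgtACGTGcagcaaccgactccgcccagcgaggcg

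In the PGK1 window 3 separate matches lie close together. A match is a description of these letters only, and binding was not measured.

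Glucose enters these cells through facilitative transporters, and RNA of both listed transporters was lower. SLC2A3, which encodes the high-affinity transporter GLUT3 (ENSG00000059804, chromosome 12, 7919230 to 7936275, minus strand), had 88.9, 92.6 and 90.8 CPM in shYES1 cells, against 192, 201 and 197 CPM in shNT cells. The gene was 2.17-fold lower (log2 fold change -1.12, SE 0.033, edgeR adjusted p = 8.57e-32). SLC2A1, which encodes the widespread transporter GLUT1, had 303, 314 and 312 CPM in shYES1 cells, against 416, 443 and 433 CPM in shNT cells (log2 fold change -0.48). The groups were separate for both genes. Per length of annotated exons, SLC2A1 was the more abundant, with 65.5 CPM per kb in shYES1 cells and 91.2 CPM per kb in shNT cells, where SLC2A3 had 14.7 CPM per kb in shYES1 cells and 31.97 CPM per kb in shNT cells. The share of SLC2A1 in the summed level of both was 81.7% ± 0.0917 in shYES1 cells and 74.03% ± 0.193 in shNT cells (SD, n = 3 each).

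Hexokinase RNA changed in opposite directions. HK1, the constitutive hexokinase (chromosome 10, 69269984 to 69401884, plus strand), had 176, 174 and 174 CPM in shYES1 cells, against 117, 117 and 116 CPM in shNT cells. Its RNA was 1.5-fold higher (log2 fold change 0.59, SE 0.031, edgeR adjusted p = 1.44e-21). HK2, the inducible hexokinase of muscle and many tumours (chromosome 2, 74833981 to 74893359, plus strand), had 83.8, 85.03 and 85.8 CPM in shYES1 cells, against 138, 139 and 136 CPM in shNT cells. The level was 1.62-fold lower (log2 fold change -0.70, SE 0.034, edgeR adjusted p = 3.49e-23). Libraries of a group lay within a few percent of each other for both genes, and the groups were separate. HK1 thereby made up 66.5% ± 0.382 in shYES1 cells and 44.9% ± 0.0857 in shNT cells of the summed level per kb of both genes (SD, n = 3 each). With the longest annotated transcript as the length in place of all annotated exons, the share of HK1 was 74.8% in shYES1 cells and 54.98% in shNT cells, so which of them leads in shNT depends on the length used, while HK1 leads in shYES1 with either. The sum of both levels was 41.8 ± 0.0279 CPM per kb in shYES1 and 41.2 ± 0.403 CPM per kb in shNT, a ratio of 1.01, or 1.10 with the longest transcripts. GPI, which converts glucose 6-phosphate to fructose 6-phosphate, had 229, 231 and 231 CPM in shYES1 cells, against 361, 383 and 360.0 CPM in shNT cells (log2 fold change -0.68).

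The phosphofructokinase genes encode subunits named for muscle, liver and platelet that form mixed tetramers, and they too moved apart. PFKM (ENSG00000152556, chromosome 12, 48105139 to 48146404, plus strand) had 85.6, 84.6 and 85.2 CPM in shYES1 cells, against 43.3, 42.5 and 41.8 CPM in shNT cells. It was 2.005-fold higher (log2 fold change 1.004, SE 0.042, edgeR adjusted p = 2.15e-25). PFKL had 105, 104 and 107 CPM in shYES1 cells, against 193, 204 and 192 CPM in shNT cells. The gene was 1.86-fold lower (log2 fold change -0.90, SE 0.032, edgeR adjusted p = 4.78e-28). PFKP had 212, 206 and 199.5 CPM in shYES1 cells, against 282, 298 and 277 CPM in shNT cells (log2 fold change -0.47, SE 0.03, edgeR adjusted p = 8.37e-19). All libraries of one group lay on one side of the other group for each of these genes. PFKP was the most abundant per kb in both groups, at 64.5% in shYES1 cells and 68% in shNT cells of the summed level. PFKM was 17.6% ± 0.281 in shYES1 cells and 6.70% ± 0.231 in shNT cells of it and PFKL 17.8% ± 0.530 in shYES1 cells and 25.3% ± 0.149 in shNT cells (SD, n = 3 each). The log2 ratio of PFKL to PFKM per kb averaged 0.02 ± 0.02 in shYES1 cells and 1.92 ± 0.053 in shNT cells. The liver subunit RNA thus exceeded the muscle subunit RNA in every shNT library, while in shYES1 they were nearly equal. With the longest transcripts as lengths PFKM was ahead in shYES1 (PFKM 20.6% in shYES1 cells and 8.06% in shNT cells, where PFKL had 15.1% in shYES1 cells and 22.1% in shNT cells).

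Fructose 2,6-bisphosphate is the strongest activator of phosphofructokinase, and the PFKFB enzymes make and remove it. PFKFB3, whose product has mainly kinase activity and so favours glycolysis (ENSG00000170525, chromosome 10, 6144934 to 6254644, plus strand), had 52.2, 47.7 and 49.4 CPM in shYES1 cells, against 186, 196 and 183 CPM in shNT cells. It was 3.77-fold lower (log2 fold change -1.91, SE 0.038, edgeR adjusted p = 1.52e-38), which was the largest change among the 35 genes. PFKFB4 (chromosome 3, 48517684 to 48562015, minus strand) had 24.2, 28.1 and 26.4 CPM in shYES1 cells, against 58.9, 60.3 and 57.5 CPM in shNT cells. Its RNA was 2.26-fold lower (log2 fold change -1.17, SE 0.053, edgeR adjusted p = 3.57e-24), though some of its exon bases overlap UCN2 on the same strand. For both the groups were far apart. PFKFB2, the form known from heart, was scarce at 13.5, 11.2 and 13.2 CPM in shYES1 cells, against 14.4, 16.6 and 15.9 CPM in shNT cells, and its small decrease (log2 fold change -0.29, SE 0.085, edgeR adjusted p = 0.0026) was lost when the test asked for more than a 1.2-fold change. Summed over the 3 genes, the level was 13.7 ± 0.152 CPM per kb in shYES1 and 42.0 ± 1.39 CPM per kb in shNT, a ratio of 0.326, the lowest of any step. TIGAR (ENSG00000078237), a p53-induced phosphatase that lowers fructose 2,6-bisphosphate, was higher, with 17.2, 19.2 and 19.2 CPM in shYES1 cells, against 9.86, 11.05 and 10.6 CPM in shNT cells (log2 fold change 0.81, SE 0.084, edgeR adjusted p = 7.96e-12).

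**Figure D3:**
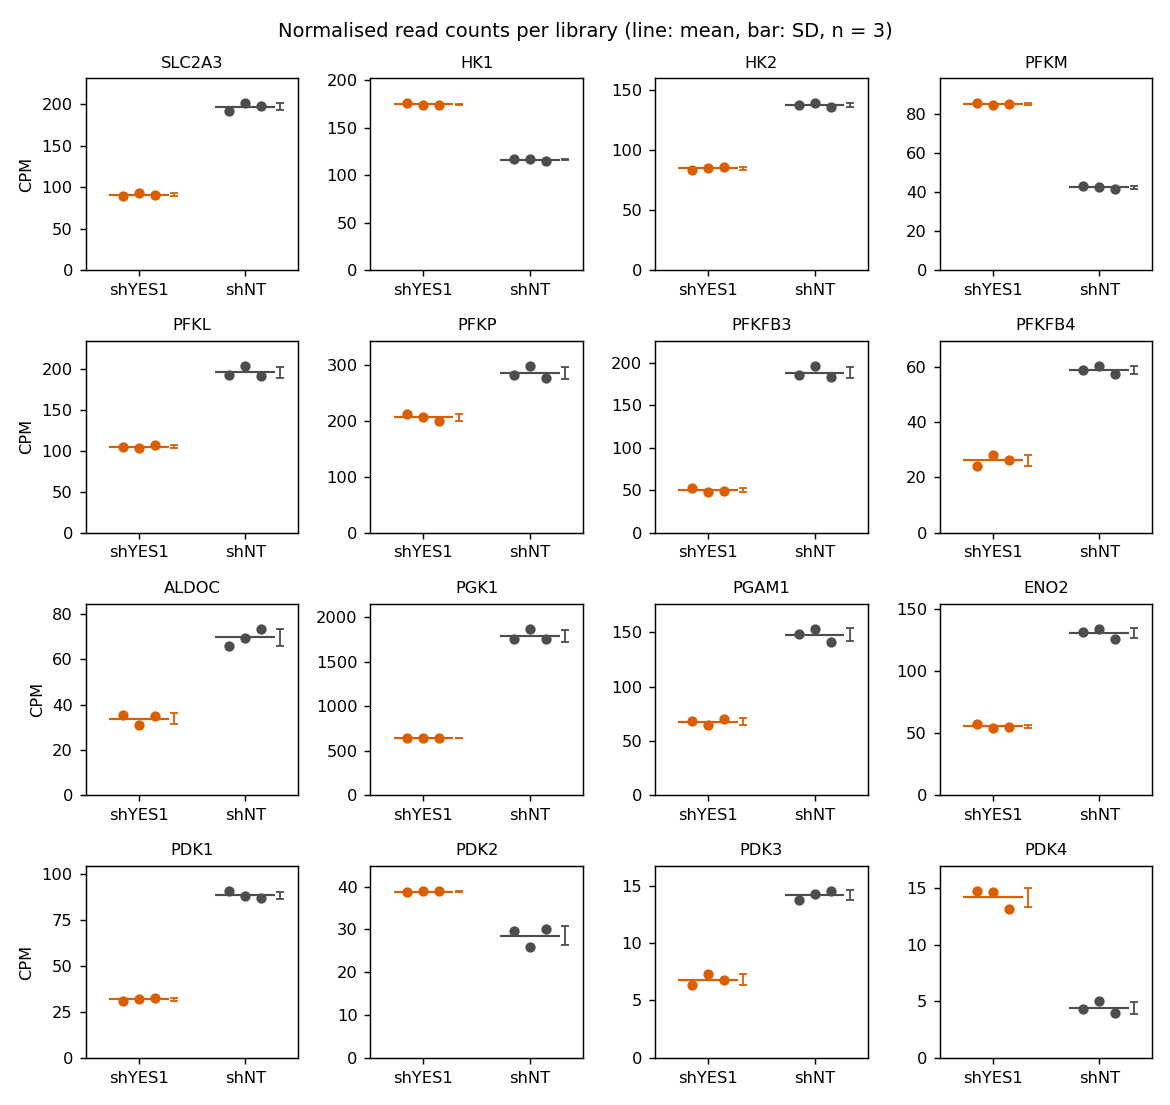
Normalised read counts (CPM, linear axis from 0) of 16 genes in each library, with points for libraries 1 to 3 of a group, a line at the mean and a bar of 1 SD (n = 3). The groups do not overlap in any panel, with HK1, PFKM, PDK2 and PDK4 higher in shYES1 and the other 12 genes lower.

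From glucose 6-phosphate to lactate, the 9 genes GPI, ALDOA, TPI1, GAPDH, PGK1, PGAM1, ENO1, PKM and LDHA were all lower, by 1.14-fold (PKM) to 2.79-fold (PGK1). PGK1, which makes the first ATP of the pathway (ENSG00000102144, chromosome X, 77910739 to 78129296, plus strand), had 639, 639 and 644 CPM in shYES1 cells, against 1750.4, 1869.8 and 1751 CPM in shNT cells (log2 fold change -1.48, SE 0.026, edgeR adjusted p = 8.66e-41). PGAM1, the phosphoglycerate mutase of most tissues (ENSG00000171314, chromosome 10, 97426160 to 97433441, plus strand), had 68.6, 64.8 and 70.5 CPM in shYES1 cells, against 148, 154 and 141 CPM in shNT cells. The level was 2.16-fold lower (log2 fold change -1.11, SE 0.037, edgeR adjusted p = 2.83e-29). TPI1, the triose phosphate isomerase, had 569.7, 578 and 571 CPM in shYES1 cells, against 1037, 1105 and 1070.5 CPM in shNT cells (log2 fold change -0.90). No shYES1 library reached any shNT library for these 3 genes. Of the 9 genes, PKM, ENO1 and GAPDH changed least. GAPDH, which oxidises glyceraldehyde 3-phosphate, averaged 3725 ± 57.7 CPM in shYES1 cells and 5270.1 ± 116 CPM in shNT cells (-0.50; SD, n = 3 each). PKM, the pyruvate kinase, averaged 3247 ± 39.05 CPM in shYES1 cells and 3686 ± 65.6 CPM in shNT cells (-0.18; SD, n = 3 each). Abundance alone did not order the changes, since PGK1 (-1.48) and ALDOA (-0.62) averaged 1790 and 1776 CPM in shNT cells. The calls of PKM and ENO1 were lost in the test against a minimum of 1.2-fold (edgeR adjusted p = 1.0 and 0.60). GAPDH has 62 annotated pseudogenes of its name, LDHA 6 and PGAM1 13, and the files list reads that map to several places apart from all genes, so these levels are uncertain. The named pseudogenes held 0.756%, 1.29% and 1.52% as many reads as their genes.

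At the aldolase and enolase steps the scarcer listed isozyme fell further than the abundant one. ALDOC, the aldolase of brain (chromosome 17, 28573115 to 28577264, minus strand), had 35.4, 31.1 and 35.04 CPM in shYES1 cells, against 66.1, 69.5 and 73.6 CPM in shNT cells. It was 2.05-fold lower (log2 fold change -1.03, SE 0.05, edgeR adjusted p = 4.90e-23). ALDOA, the aldolase of muscle and most other tissues, averaged 1157 ± 15.9 CPM in shYES1 cells and 1776 ± 28.96 CPM in shNT cells (-0.62). ENO2, the enolase known from neurons (chromosome 12, 6913745 to 6923698, plus strand), had 57.04, 54.3 and 54.8 CPM in shYES1 cells, against 131, 134 and 126 CPM in shNT cells. The gene was 2.35-fold lower (log2 fold change -1.23, SE 0.038, edgeR adjusted p = 1.04e-30). ENO1, the ubiquitous enolase, averaged 3178 ± 11.3 CPM in shYES1 cells and 3796 ± 127 CPM in shNT cells (-0.26). ENO3, an enolase outside the 35 genes and scarcer than ENO2, averaged 11.7 ± 0.564 CPM in shYES1 cells and 9.74 ± 0.994 CPM in shNT cells and was higher (0.28). The log2 ratio of ALDOC to ALDOA per kb averaged -4.68 ± 0.098 in shYES1 cells and -4.25 ± 0.069 in shNT cells, and that of ENO2 to ENO1 -5.54 ± 0.034 in shYES1 cells and -4.56 ± 0.034 in shNT cells (SD, n = 3 each), without overlap. ALDOC and ENO2 made up at most a few percent of their steps in either group, 3.77% in shYES1 cells and 4.99% in shNT cells for ALDOC and 2.10% in shYES1 cells and 4.06% in shNT cells for ENO2.

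Lactate dehydrogenase is a tetramer of A and B subunits, of which A is the form associated with lactate production. LDHA had 1541, 1506 and 1524 CPM in shYES1 cells, against 2283, 2336 and 2359 CPM in shNT cells. Its RNA was 1.53-fold lower (log2 fold change -0.61, SE 0.023, edgeR adjusted p = 4.38e-27). LDHB had 159, 162 and 155 CPM in shYES1 cells, against 144, 155 and 158 CPM in shNT cells. Its groups overlapped, and the log2 fold change of 0.049 was not called (95% interval -0.018 to 0.12, edgeR adjusted p = 0.199). LDHA accounted for 82.2% ± 0.427 in shYES1 cells and 88% ± 0.365 in shNT cells of the summed level per kb (SD, n = 3 each). Per kb, LDHA was above LDHB in every library.

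The kinases that switch off pyruvate dehydrogenase showed the widest spread of any step, with PDK1 and PDK3 lower and PDK2 and PDK4 higher. PDK1, an isozyme induced by low oxygen (ENSG00000152256, chromosome 2, 172555373 to 172608669, plus strand), had 31.1, 32.1 and 32.6 CPM in shYES1 cells, against 90.5, 87.9 and 86.7 CPM in shNT cells. The level was 2.76-fold lower (log2 fold change -1.46, SE 0.045, edgeR adjusted p = 8.36e-31). PDK3 (chromosome X, 24465221 to 24541862, plus strand) had 6.33, 7.27 and 6.79 CPM in shYES1 cells, against 13.7, 14.3 and 14.5 CPM in shNT cells. It was 2.10-fold lower (log2 fold change -1.07, SE 0.097, edgeR adjusted p = 1.36e-13). No shYES1 library reached the level of any shNT library for either gene. PDK4, an isozyme induced by fasting and fatty acids (ENSG00000004799, chromosome 7, 95583499 to 95596491, minus strand), had 14.7, 14.6 and 13.2 CPM in shYES1 cells, against 4.28, 4.99 and 3.93 CPM in shNT cells. The gene was 3.21-fold higher (log2 fold change 1.68, SE 0.11, edgeR adjusted p = 4.61e-18), the largest increase among the 35 genes. PDK2, the most widely expressed isozyme, had 38.7, 38.9 and 38.9 CPM in shYES1 cells, against 29.6, 25.96 and 30.2 CPM in shNT cells (log2 fold change 0.44, SE 0.057, edgeR adjusted p = 4.09e-09). For both the shYES1 libraries were the higher ones throughout. In shNT cells PDK1 had the largest mean share of the summed kinase level per kb, followed by PDK2, whereas in shYES1 cells PDK2 led and PDK4 came second.

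PDK1 made up 15.6% ± 0.462 in shYES1 cells and 39.6% ± 0.981 in shNT cells of the kinase RNA, PDK2 51.6% ± 0.711 in shYES1 cells and 34.7% ± 2.11 in shNT cells, PDK3 9.99% ± 0.594 in shYES1 cells and 19.1% ± 0.774 in shNT cells and PDK4 22.8% ± 1.22 in shYES1 cells and 6.51% ± 0.934 in shNT cells (SD, n = 3 each). With the longest transcripts as lengths PDK2 led in both groups, at 59.6% in shYES1 cells and 44.2% in shNT cells, and PDK1 was second in shNT. The log2 ratio of PDK1 to PDK4 averaged -0.55 ± 0.12 in shYES1 cells and 2.61 ± 0.17 in shNT cells, which is an 8.94-fold difference and the largest of the isozyme ratios. The summed kinase level differed little, with a ratio of shYES1 to shNT of 0.917 per kb of exons and 1.01 with the longest transcripts, so its direction depends on the length used.

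**Figure D4:**
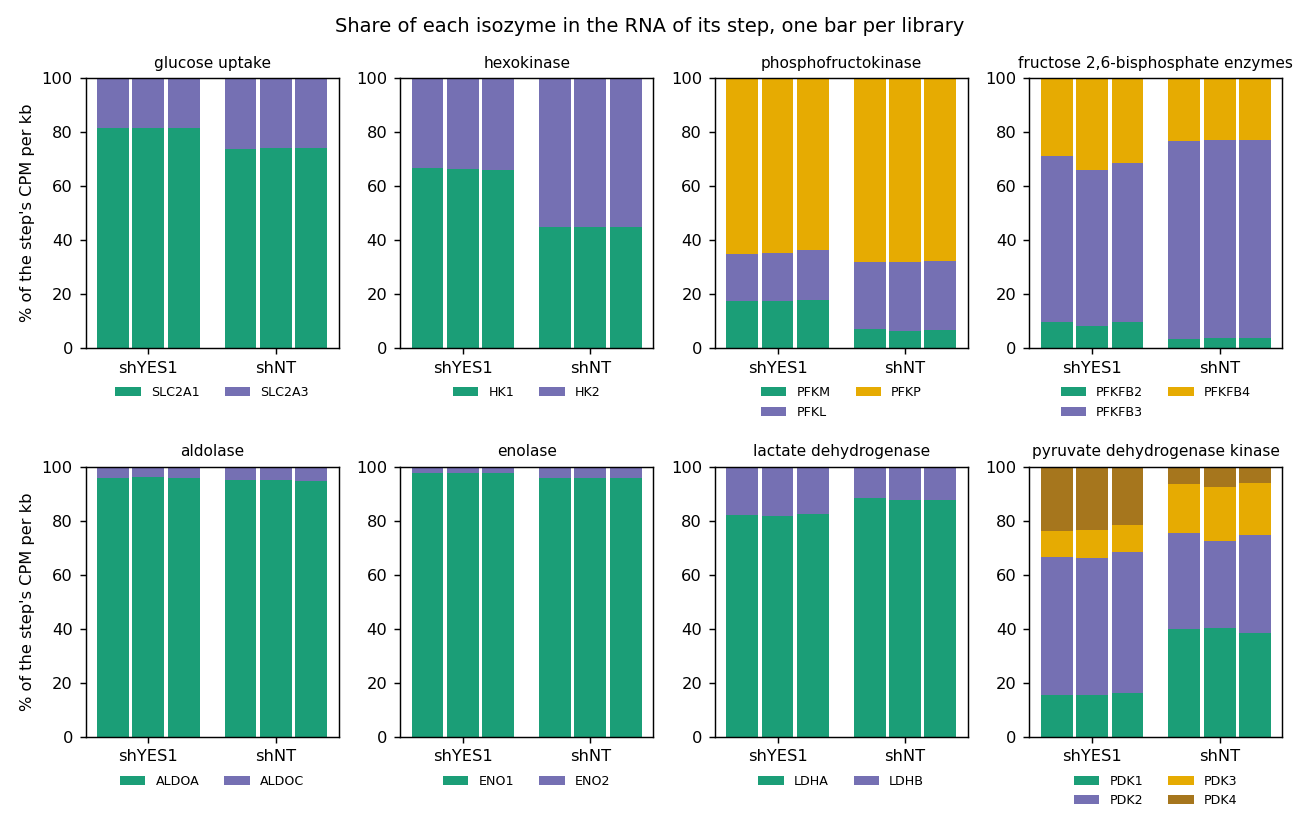
Share of each isozyme in the summed level of its step (percent of CPM per kb of annotated exons), with 1 bar per library, shYES1 libraries left of shNT libraries in each of 8 panels. The share of HK1 is 66.5% in shYES1 and 44.9% in shNT, that of PFKM 17.6% in shYES1 and 6.70% in shNT, and that of PDK4 22.8% in shYES1 and 6.51% in shNT, while ALDOA and ENO1 hold nearly all of their steps in both groups.

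Within steps, 17 pairs of isozymes were compared by their log2 ratio per kb in each library, which does not depend on how libraries are scaled. In all 17 pairs the groups did not overlap, and each gave the smallest p that 3 against 3 samples allows (exact two-sided permutation test, p = 0.10, and 0.10 after adjustment over the 17 pairs), so none could pass 0.05. Among single genes the groups did not overlap for 67.9% of all genes tested, and the share for other gene pairs was not computed. Pairs that share a gene are not independent of each other. The largest shifts after PDK1 over PDK4 were PDK3 over PDK4 (6.75-fold), PDK1 over PDK2 (3.77-fold) and PFKL over PFKM (3.73-fold). The smallest were PDK1 over PDK3 (1.32-fold), ALDOC over ALDOA (1.34-fold) and PFKP over PFKL (1.35-fold). Of these pairs, HK2 over HK1 averaged -0.99 ± 0.025 in shYES1 cells and 0.30 ± 0.005 in shNT cells, and PFKFB4 over PFKFB3 -0.92 ± 0.17 in shYES1 cells and -1.67 ± 0.021 in shNT cells on the log2 scale (SD, n = 3 each).

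Genes of pyruvate entry were higher (MPC1, MPC2, PDHB), not called (PDHA1) or lower (PDP1). MPC1 and MPC2 encode the subunits of the mitochondrial pyruvate carrier. MPC1 had 35.7, 32.7 and 34.4 CPM in shYES1 cells, against 27.2, 24.8 and 26.1 CPM in shNT cells (log2 fold change 0.40, SE 0.059, edgeR adjusted p = 6.53e-08), and MPC2 had 63.98, 63.6 and 65.5 CPM in shYES1 cells, against 55.9, 59.6 and 57.8 CPM in shNT cells (log2 fold change 0.16). The groups were separate for both, but the call of MPC2 was lost when libraries were scaled on genes without CCTTTC (log2 fold change 0.065, edgeR adjusted p = 0.177) and against a 1.2-fold minimum. Of the subunits of the first enzyme of pyruvate dehydrogenase, PDHB (beta) had 66.7, 66.8 and 65.6 CPM in shYES1 cells, against 48.4, 51.5 and 49.5 CPM in shNT cells (log2 fold change 0.41, SE 0.044, edgeR adjusted p = 1.59e-11). PDHA1 (alpha) had 86.7, 87.1 and 82.1 CPM in shYES1 cells, against 88.1, 78.7 and 86.1 CPM in shNT cells, which overlapped, with a log2 fold change of 0.013 (95% interval -0.068 to 0.093, edgeR adjusted p = 0.799). PDP1, the phosphatase that reactivates the complex, had 80.8, 81.9 and 85 CPM in shYES1 cells, against 132, 134 and 133 CPM in shNT cells. Its RNA was 1.61-fold lower (log2 fold change -0.69, SE 0.034, edgeR adjusted p = 1.60e-22).

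In the pentose phosphate pathway, RNA of the enzymes that rearrange sugars was higher and that of an oxidative enzyme was not called. TKT, the transketolase, had 600.2, 603 and 593 CPM in shYES1 cells, against 379.6, 369 and 384 CPM in shNT cells. The level was 1.59-fold higher (log2 fold change 0.66, SE 0.025, edgeR adjusted p = 2.38e-27). TALDO1, the transaldolase, had 171, 164 and 157 CPM in shYES1 cells, against 151, 147 and 150.0 CPM in shNT cells, a small difference (log2 fold change 0.13, SE 0.032, edgeR adjusted p = 3.19e-04) that was lost when libraries were scaled on genes without CCTTTC (log2 fold change 0.042, edgeR adjusted p = 0.265) and against a 1.2-fold minimum. PGD, which makes NADPH in the oxidative branch, had 269, 272 and 252 CPM in shYES1 cells, against 252, 253 and 266 CPM in shNT cells. The PGD groups overlapped (log2 fold change 0.035, 95% interval -0.024 to 0.095, edgeR adjusted p = 0.300).

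Other genes of these pathways, from lists chosen with earlier results of these libraries known, moved in both directions. The counts here and in the next paragraph stand beside 32.5% higher and 32.8% lower over all genes tested. Of 12 other pentose phosphate and ribose phosphate genes 11 were tested, of which 1 was higher, 7 lower and 3 not called. PRPS2, which turns ribose phosphate into a nucleotide precursor, had the largest decrease, at 14.7 ± 0.793 CPM in shYES1 cells and 48.01 ± 3.05 CPM in shNT cells (-1.70), and H6PD, a dehydrogenase of the endoplasmic reticulum, was at 225 ± 3.50 CPM in shYES1 cells and 333 ± 19.5 CPM in shNT cells (-0.57; SD, n = 3 each). Of 7 tested hexose transporters outside the 35 genes 3 were higher and 2 lower, with SLC2A8 (0.81) and SLC2A12 (0.70) above and SLC2A10 (-0.75) below. Among other glycolysis isozymes and side branches, 6 of 11 were higher and 3 lower, such as MINPP1 (0.56) and BPGM (0.53), which handle bisphosphoglycerate, against ADPGK (-0.34), which phosphorylates glucose with ADP, and GPD2 (-0.27), of the glycerol phosphate shuttle. In parentheses are log2 fold changes.

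Lactate leaves cells through monocarboxylate transporters, and of 4 tested genes 1 was higher and 1 lower. SLC16A1 (MCT1) was at 163 ± 4.13 CPM in shYES1 cells and 255 ± 5.79 CPM in shNT cells (-0.64), and SLC16A3 (MCT4), the exporter of glycolytic cells, at 482 ± 9.31 CPM in shYES1 cells and 394 ± 4.15 CPM in shNT cells (0.29). Of 7 other tested genes of pyruvate dehydrogenase, citrate synthesis and citrate export 2 were higher, DLD (0.31) and SLC25A1 (0.34), and 2 lower, PDPR (-0.89), which restrains the phosphatase, and PDP2 (-0.30). Gluconeogenic genes split evenly, with PCK2 (0.50) and G6PC3 (0.12) higher and PC (-0.52) and SLC37A4 (-0.75) lower among 4 tested. Of 19 tested regulators of glycolysis 5 were higher and 11 lower (median log2 fold change -0.33, against -0.0047 over all genes). HIF1A, which encodes the oxygen-regulated subunit of HIF-1, had 319, 302 and 314 CPM in shYES1 cells, against 888, 858 and 888 CPM in shNT cells (log2 fold change -1.49, SE 0.026, edgeR adjusted p = 1.06e-40), without overlap, and its annotated 3′ UTR holds CCTTTC. PRKAA2, a catalytic subunit of the energy sensor AMPK, was also lower (-1.57), and the highest among them were ESRRA (0.84), a nuclear receptor of energy metabolism, and MLXIP (0.51), a glucose-responsive transcription factor.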

How the data were processed

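Poly(A) RNA of 6 samples of SNU-387 cells was sequenced from stranded KAPA libraries, per the labels' protocols. The authors deposited raw, unnormalized read counts by gene for each sample, with unstranded, forward and reverse columns. CASAVA 1.8.2, Trimmomatic 0.35, STAR 2.5.1b and genome build GRCh38 are named in the submitters' processing notes; they name no annotation release. Reverse-strand counts were used, because 93.5% to 94.0% of stranded gene reads fell on them. Entries that name no gene held 19.8% to 20.3% of reads and were left out. Of 58219 identifiers 57437 matched a symbol, and 57881 are in GENCODE release 29, the source of coordinates, exon lengths and 3′ UTRs.

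Genes were filtered in edgeR 4.0.16 (R 4.3.3) by filterByExpr at a minimum count of 10 and a minimum total of 15, which kept 14239. After TMM scaling, shYES1 and shNT were compared by the robust quasi-likelihood test (Benjamini-Hochberg adjusted p under 0.05 over all genes tested). The SE is the size of the log2 fold change divided by the square root of F, which is approximate. Intervals are at 95%. Limits from a count of 0 use 3 counts and cover counting error only. Levels between genes are CPM per kilobase of all annotated exons. The fit was also run on simulated counts in which few genes changed, with rises and falls equally likely. That run does not test how the scaling acts here, where 65.3% of genes were called. Replicates of a group differed by more than sampling noise (chi-square per degree of freedom 1.15 to 2.18), so none was counted as a duplicate.

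The genes, lists and tests were chosen with earlier results of these data known. All 35 genes are given; values per library are given for genes changed at least 2-fold and for steps whose isozymes moved apart, and for some others. Of other genes, up to 2 of the largest changes in each direction per list with a mean of at least 5 CPM are named, and some are not reported here. Alternatives were RLE or library-size scaling, TMM on genes without CCTTTC, DESeq2 1.42.0, limma-voom (limma 3.58.1), no filter, a filter of 1 CPM in 3 libraries, unstranded counts, a block on sample number, a 1.2-fold minimum, other lengths and leaving out each library.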

Additional observations from a re-analysis of the deposited data

How the results depend on the processing

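Of the 35 genes 27 kept their direction and their side of the threshold under all 16 alternatives. The count of lower genes was 22 under every alternative except the 1.2-fold minimum, with 19 lower, 8 higher and 8 not called. With library-size scaling 0 were not called in edgeR, LDHB (0.15), PDHA1 (0.11) and PGD (0.13) being called higher, and with TMM on genes without CCTTTC 22 were lower, 8 higher and 5 not called. In that last setting the uncalled log2 fold changes of LDHB (-0.044), PDHA1 (-0.080) and PGD (-0.058) turned negative, and so did PDHA1 without shYES1 sample 1 (-0.0010) and without shNT sample 2 (-0.035), its range over left-out libraries being -0.035 to 0.044. Over all genes the 1.2-fold minimum left 2324 higher, 2861 lower and 9054 not called, and without a low-count filter 19767 genes were not called, since more genes were tested. TMM on genes without CCTTTC gave 3553 higher and 5717 lower, with a median of -0.097 over all genes, where library-size scaling gave 0.092. Leaving out 1 library gave 4342 to 4500 higher and 4409 to 4584 lower, and among the 35 genes always 10 higher and 22 lower. All 153 alternative values of the isozyme ratios kept their direction, but most of them could not have changed it. Another length or a block leaves the difference between groups as it is. Groups without overlap keep its sign when 1 library is left out. Only the values from unstranded counts could have differed in direction.

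Samples with the same number showed little shared deviation (correlation of their deviations from the group means 0.012 to 0.025). For samples with different numbers it was -0.038 to 0.025. No pairing by number was detected, though such correlations over all genes cannot exclude it. With the sample number as a block, 4628 genes were higher and 4669 lower, and 10 and 22 of the 35 genes. With 3 libraries per group no permutation test can fall below p = 0.10, and PDK4, PDK3 and PFKFB2, among the least abundant genes, have the widest intervals.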

Other observations

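Libraries of a group agreed closely for these genes. The coefficient of variation had a median of 2.03% in shYES1 and 3.18% in shNT over the 35 genes, and its highest values were 9.87% in shYES1 (PFKFB2) and 12.3% in shNT (PDK4).

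Summed per step, the RNA of most of the chain was lower, while the mitochondrial pyruvate carrier was at 47.4 ± 1.154 CPM per kb in shYES1 and 39.5 ± 0.0763 in shNT, and the 3 pentose phosphate enzymes at 207 ± 6.13 CPM per kb in shYES1 and 176 ± 3.56 in shNT (SD, n = 3 each).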
